A study of Mus musculus with 23 samples.

Results

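Early erythroid genes, led by the carbonic anhydrase gene Car1, were read across all libraries of the study. They are Car1, Car2, Ermap, Rhd, Cited4, Icam4, Pklr, Epb42, Hba-a1 and Hba-a2, which is 10 of the 24454 genes in the count table. They were chosen by symbol after an earlier look at the same libraries had shown most of them lower in the mutant CD41-negative stem cells, so that difference is given here as a description with no test. All 10 passed the filter on low counts in both library protocols, several of them only through the wild-type groups in which they were high.

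The libraries came from bone marrow of C57BL/6 mice, wild type (WT) or SclCre;V617F (SF1 in the labels, V617F here). In the SclCre;V617F line, a tamoxifen-inducible Cre under Scl control switches on JAK2-V617F, a constantly active form of the kinase downstream of the erythropoietin and thrombopoietin receptors that causes myeloproliferative disease. Mice of both genotypes received tamoxifen for 5 days, and cells were sorted 12 weeks later. The 4 populations were long-term haematopoietic stem cells (LT-HSC, Lin- Kit+ Sca1+ CD48- CD150+), HSC of the same gate split into CD41-negative and CD41-positive cells (the CD41 fractions), and megakaryocyte progenitors (MkP, Lin- Kit+ Sca1- CD150+ CD41+). Each of the 8 groups had 3 libraries except WT CD41-positive HSC, which had 2. LT-HSC and MkP were amplified with SMART-Seq v2 (12 libraries) and the CD41 fractions with SMART-Seq v4 (11 libraries), so population and protocol cannot be told apart between these pairs and no value was compared across them. All V617F LT-HSC libraries came from males and all WT LT-HSC libraries from females, so genotype and sex cannot be told apart there. Population and sex likewise cannot be told apart between V617F LT-HSC and V617F MkP. In the CD41 fractions the V617F libraries numbered 2 were male, and all other libraries were female.

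Red cells arise from stem cells through progenitors that begin to express erythroid genes long before haemoglobin accumulates. The transcription factors GATA1 and KLF1 switch on genes for blood group and adhesion proteins, the membrane skeleton, red cell metabolism and the globins, and erythropoietin signals through JAK2 and STAT5 to keep these cells alive. Megakaryocyte progenitors share much of this early programme, because both lineages come from a common precursor.

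Library totals ran from 17.6 to 49.2 M counts. Socs2, a STAT5 target that serves as a check on the genotype labels, lay between 149 and 215 CPM in V617F and between 21.8 and 36.2 CPM in WT CD41-negative HSC. CPM is counts per M of the scaled library total. WT SMART-Seq v2 libraries detected 11483 to 13805 genes and V617F ones 14634 to 15697. Markers of other cells differed with genotype in both protocols. The summed level of 14 granulocyte and monocyte markers was 4237 to 9051 CPM in WT and 939 to 1816 CPM in V617F LT-HSC, and 8953 to 12698 CPM in WT and 1459 to 2962 CPM in V617F MkP, with at most 1 marker at 0 in any of these libraries. In the CD41 fractions the same sum was 527 to 1055 CPM in WT and 574 to 603 CPM in V617F CD41-negative HSC, and 447 to 471 CPM and 377 to 489 CPM in CD41-positive HSC. The 15 megakaryocyte and platelet markers summed to 5668 to 6486 CPM in WT and 5939 to 7489 CPM in V617F MkP. In the CD41 fractions their sum was lower in V617F with no overlap, at 1800 to 1964 CPM in WT and 1239 to 1340 CPM in V617F CD41-negative HSC, and 3755 to 3910 CPM in WT and 2384 to 3365 CPM in V617F CD41-positive HSC, with 1 marker at 0. The 8 mast cell and basophil markers summed to 120 to 305 CPM in WT and 48.2 to 117 CPM in V617F MkP, and to 9.29 to 11.2 CPM and 11.6 to 18.7 CPM in CD41-positive HSC. Whether other cells take part in the differences below was not tested. The 12 late erythroid and reticulocyte markers, alpha globin included, summed to 364 to 510 CPM in the CD41 fractions and 367 to 888 CPM in LT-HSC and MkP, with at most 3 at 0 in a library. Among them Slc4a1, the anion exchanger of red cells, was at 0 in 12 of 23 libraries and reached 37.0 CPM in WT MkP library 31, and at most 1.96 CPM elsewhere. In bulk samples, fewer cells of a type and less RNA per cell cannot be told apart.

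The sequence before the start of 8 of the 10 genes was in the RefSeq promoter table (GRCm38.p6, the mm10 assembly). The 250 bases before each start were searched on both strands for AGATAA and also AGATAG and also TGATAA and also TGATAG, which GATA factors bind. A match was found in 7 of 9 member windows, Pklr having 2 starts, and in 23.5% of the 21891 windows of genes in the table. The 80 bases from 100 to 21 before the start are shown for 5 members, 5′ to 3′ in the gene's direction, because 4 of them hold a GATA match close to the start, among them Icam4, whose level differed little between genotypes, and Cited4 holds none. Capitals mark the match, which in Ermap and Icam4 lies on the opposite strand.
Ermap: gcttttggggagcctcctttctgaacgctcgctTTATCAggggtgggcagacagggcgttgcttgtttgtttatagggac
Rhd: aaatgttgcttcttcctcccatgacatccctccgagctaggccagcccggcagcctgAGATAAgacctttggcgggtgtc
Pklr: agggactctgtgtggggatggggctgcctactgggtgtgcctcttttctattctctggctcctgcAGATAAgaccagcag
Icam4: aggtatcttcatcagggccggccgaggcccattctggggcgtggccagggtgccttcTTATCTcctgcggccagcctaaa
Cited4: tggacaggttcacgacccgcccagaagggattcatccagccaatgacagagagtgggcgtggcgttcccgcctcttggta
These stretches are chr4:119190016-119190095 (minus strand) for Ermap, chr4:134864436-134864515 (plus) for Rhd, chr3:89136042-89136121 (plus) for the upstream start of Pklr, chr9:21029332-21029411 (plus) for Icam4 and chr4:120666463-120666542 (plus) for Cited4. Distances are from the RefSeq promoter start, which in Ermap and Pklr lies inside the span given for the gene below. The match began 67 bases before the start in Ermap, 43 in Rhd, 35 in Pklr and 43 in Icam4. It lay farther out in Hba-a1 (183), Hba-a2 (186) and Epb42 (226), and no window of Cited4 or of the downstream Pklr start held it. CCNCNCCC, the letters of KLF1 sites, occurred in the windows of Cited4 and Icam4 and in 53.6% of all windows. CANNTG (E-box) occurred in 4 of 9 member windows against 63.1% of all, the alpha globin copies again counted separately. TTCNNNGAA (STAT) occurred in 0 of 9 against 6.75%. These matches are letters in a window and show no binding.

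Car1, which encodes the cytosolic carbonic anhydrase I of red cells and is an early mark of erythroid commitment, lies at chr3:14766214-14808365. In CD41-negative HSC it stood at 18.4, 80.2 and 101 CPM in WT libraries 1, 3 and 4 and at 1.93, 0.944 and 1.77 CPM in V617F libraries 1, 2 and 3. In CD41-positive HSC it was 19.5 and 27.3 CPM in WT and 0.285, 1.15 and 1.5 CPM in V617F. The groups did not overlap, and the mean was 42.9-fold lower in V617F CD41-negative and 23.9-fold lower in V617F CD41-positive HSC. LT-HSC gave 62.7, 10.5 and 24.6 CPM in WT and 0.207, 0.727 and 0.250 CPM in V617F, and MkP 174, 186 and 206 CPM in WT and 1.98, 3.07 and 13.8 CPM in V617F. Every WT library thus lay above every V617F library of its population, by 82.6-fold in the means of LT-HSC and 30.1-fold in MkP. Car1 was known to differ in all 4 populations when the genes were picked, so no test is given for it.

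**Figure D1:**
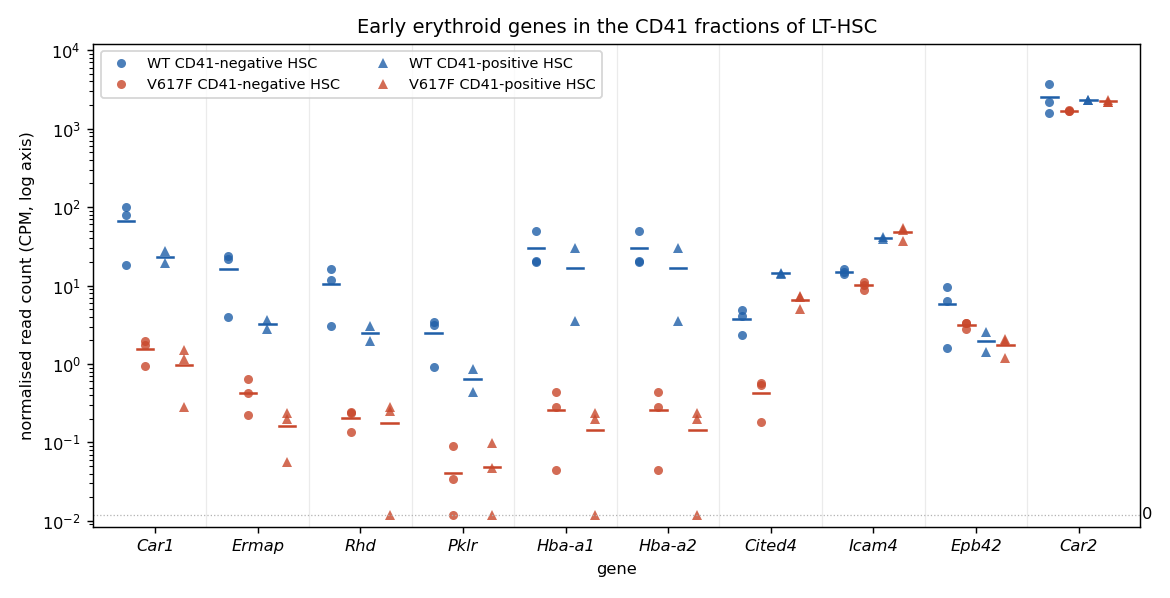
Normalised read count (CPM, log axis) of the 10 genes in each library of the CD41 fractions. Points are libraries, short lines group means, circles CD41-negative and triangles CD41-positive HSC, blue WT and red V617F, and points on the dotted line are 0. Car1, Ermap, Rhd, Pklr and the alpha globins separate by colour, Icam4 by shape, and Car2 does not separate by colour.

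Car2 encodes carbonic anhydrase II, a fast isoform found in red cells and many other tissues. It lies at chr3:14886269-14900770, 77903 bases beyond Car1. Its level was far higher, and its mean differed by at most 1.51-fold between genotypes in any population. CD41-negative HSC gave 3756, 1575 and 2183 CPM in WT and 1746, 1666 and 1660 CPM in V617F, and CD41-positive HSC gave 2343 and 2306 CPM in WT and 2195, 2190 and 2329 CPM in V617F. The V617F values fell inside the WT range in the first fraction and overlapped it in the other. LT-HSC ranged from 1511 to 6283 CPM in WT and from 1810 to 3024 CPM in V617F, which overlapped. MkP ranged from 1701 to 1850 CPM in WT and from 1278 to 1598 CPM in V617F, lower in V617F with no overlap. Car2 did not pass the test in CD41-positive HSC (log2 difference -0.05 ± 0.28, adjusted p = 0.96), LT-HSC (-0.59 ± 0.43, adjusted p = 0.667) or MkP (-0.34 ± 0.42, adjusted p = 0.847). All adjusted p-values here are from edgeR's quasi-likelihood test with Benjamini-Hochberg adjustment over all genes of a protocol, errors of log2 differences are SE, and differences are V617F minus WT unless stated. Of the other 14 carbonic anhydrase genes in the table, 10 were measured in the CD41 fractions. Only Car11 passed the test among them, in CD41-negative HSC, at -1.18 ± 0.34 (adjusted p = 0.0441).

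Ermap (chr4:119175457-119190013) encodes an erythroid membrane protein that carries the Scianna blood group. CD41-negative HSC held 3.94, 23.7 and 21.6 CPM in WT and 0.645, 0.225 and 0.424 CPM in V617F. CD41-positive HSC held 3.67 and 2.80 CPM in WT and 0.0569, 0.199 and 0.234 CPM in V617F, the last being 1, 4 and 5 reads. LT-HSC held 22.9, 1.56 and 2.87 CPM in WT and 0.166, 0.260 and 0.625 CPM in V617F, and MkP 46.3, 38.4 and 23.9 CPM in WT and 0.430, 0.480 and 1.56 CPM in V617F. WT and V617F did not overlap in any population, and the means were 38.0-fold, 19.8-fold, 26.0-fold and 43.9-fold lower in V617F, in the order given. The fall passed the test in CD41-positive HSC (-4.21 ± 0.80, adjusted p = 0.0259) and did not in LT-HSC (-4.68 ± 1.18, adjusted p = 0.164), where WT library 30 alone held 22.9 CPM. V617F libraries of equal number deviated together across the CD41 fractions, and the genes were chosen on the CD41-negative ones. No test of a member in CD41-positive HSC is therefore independent of the choice. The MkP difference had been seen when Ermap was picked and is not tested.

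Rhd (chr4:134864536-134896172) encodes the Rh blood group protein of the red cell membrane. In CD41-negative HSC its level was 3.09, 11.8 and 16.2 CPM in WT and 0.238, 0.135 and 0.247 CPM in V617F. In CD41-positive HSC it was 3.03 and 1.98 CPM in WT and 0, 0.249 and 0.281 CPM in V617F. WT exceeded V617F in every library of both fractions, by 50.1-fold and 14.2-fold in the means. The difference in CD41-positive HSC, from 0, 5 and 6 reads in V617F, passed the test at -3.72 ± 0.78 (adjusted p = 0.0401). That test is not independent of the choice of genes. LT-HSC libraries of WT ranged widely, at 87.5, 2.29 and 8.91 CPM, against 0.0829, 0.156 and 0.417 CPM in V617F. MkP held 50.9, 26.5 and 88.0 CPM in WT and 0.258, 0.111 and 2.36 CPM in V617F. Neither of these differences passed the test (-7.20 ± 1.65, adjusted p = 0.153 in LT-HSC, and -5.90 ± 1.53, adjusted p = 0.0735 in MkP), though the groups did not overlap in either population.

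Icam4 (chr9:21029432-21030596), the Landsteiner-Wiener blood group adhesion protein, differed more between populations than between genotypes. It held 14.96, 16.1 and 14.2 CPM in WT and 10.2, 8.81 and 11.2 CPM in V617F CD41-negative HSC, where the groups did not overlap but differed by 1.499-fold in the means. In CD41-positive HSC it held 41.4 and 39.1 CPM in WT and 54.6, 37.2 and 50.6 CPM in V617F, which overlapped. LT-HSC ranged from 19.4 to 63.3 CPM in WT and from 17.8 to 31.4 CPM in V617F, which overlapped. MkP ranged from 120 to 163 CPM in WT and from 82.6 to 99.0 CPM in V617F, lower in V617F with no overlap. None of the 3 tested genotype differences passed, with 0.24 ± 0.18 (adjusted p = 0.694) in CD41-positive HSC, -0.62 ± 0.41 (adjusted p = 0.621) in LT-HSC and -0.66 ± 0.41 (adjusted p = 0.531) in MkP.

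Epb42 (chr2:121017891-121036877) encodes protein 4.2, which ties the anion exchanger to the membrane skeleton. It was low throughout and its levels overlapped between genotypes in 3 of the 4 populations. CD41-negative HSC held 1.60, 9.57 and 6.35 CPM in WT and 3.36, 3.37 and 2.75 CPM in V617F, and CD41-positive HSC 2.54 and 1.42 CPM in WT and 1.94, 1.20 and 2.06 CPM in V617F. LT-HSC held 0.895, 0 and 8.28 CPM in WT and 1.33, 2.13 and 3.25 CPM in V617F. MkP turned the other way, with 0 reads in all 3 WT libraries and 0.344, 1.29 and 0.0295 CPM in V617F. The V617F values are 8, 35 and 1 reads, so library 2 held 35 of the 44 and library 3 fell below 3 counts. Taking 3 counts per library as the limit that a 0 allows, the V617F MkP mean was at least 6.71-fold higher, which rests mainly on library 2. That difference did not pass the test (adjusted p = 0.177), nor did those in CD41-positive HSC (-0.19 ± 0.58, adjusted p = 0.936) and LT-HSC (-0.45 ± 1.82, adjusted p = 0.979).

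Pklr (chr3:89136122-89146815) encodes the pyruvate kinase of red cells and liver, the last enzyme of glycolysis. Its WT reads almost vanished from V617F libraries. It held 0.905, 3.12 and 3.48 CPM in WT CD41-negative HSC and 0.440 and 0.862 CPM in WT CD41-positive HSC. WT LT-HSC held 6.63, 11.4 and 0.756 CPM and WT MkP 24.8, 1.17 and 2.48 CPM. V617F groups held only 3, 3, 2 and 3 reads in all, so the ratio of summed reads is given with a 95% counting interval that covers counting error only. It was 67.0 (22.5 to 329) in CD41-negative and 13.0 (4.05 to 66.9) in CD41-positive HSC, 184 (50.8 to 1526) in LT-HSC and 281 (95.9 to 1364) in MkP. WT MkP library 30 held 982 of the 1105 WT reads, and without it the MkP ratio was 48.8 (16.3 to 240). No Pklr difference passed the test across libraries, with adjusted p = 0.128 in CD41-positive HSC, 0.172 in LT-HSC and 0.077 in MkP, by edgeR's quasi-likelihood test.

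Cited4 (chr4:120666563-120667820), a cofactor of the histone acetylases CBP and p300, had a lower mean in V617F in the CD41 fractions and a higher one in LT-HSC. CD41-negative HSC held 4.05, 4.87 and 2.37 CPM in WT and 0.543, 0.180 and 0.565 CPM in V617F, a mean 8.76-fold lower in V617F with no overlap. CD41-positive HSC held 14.1 and 14.6 CPM in WT and 7.12, 5.08 and 7.45 CPM in V617F, 2.19-fold lower with no overlap, which did not pass the test (-1.13 ± 0.33, adjusted p = 0.15). MkP held 43.7, 67.4 and 21.4 CPM in WT and 35.6, 59.7 and 36.2 CPM in V617F, a difference of -0.01 ± 0.81 (adjusted p = 1). LT-HSC held 0.0407, 1.22 and 0.856 CPM in WT and 2.44, 2.96 and 1.58 CPM in V617F. The LT-HSC groups did not overlap, but the 1.70 ± 0.84 higher value in V617F did not pass (adjusted p = 0.444).

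Hba-a1 (chr11:32283672-32284486) and Hba-a2 (chr11:32296492-32297310) encode the adult alpha globin chains from near-identical copies with 1 annotated gene between them. The 150 bases before the start are identical in both promoter windows at an offset of 3 bases, which can be followed in their 80-base stretches, chr11:32283572-32283651 and chr11:32296392-32296471, both on the plus strand.
Hba-a1: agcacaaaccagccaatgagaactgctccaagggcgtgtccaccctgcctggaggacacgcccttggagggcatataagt
Hba-a2: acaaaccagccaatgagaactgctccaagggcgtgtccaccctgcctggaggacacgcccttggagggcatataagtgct
Their counts were equal in 11 of 23 libraries and never differed by more than 29 reads or 1.23%. The counts cannot say which copy the reads came from, so the pair is 1 measurement and Hba-a1 is given for both. CD41-negative HSC held 49.2, 20.6 and 19.9 CPM in WT and 0.441, 0.0450 and 0.282 CPM in V617F, 117-fold lower in the means. CD41-positive HSC held 30.4 and 3.49 CPM in WT and 0, 0.199 and 0.234 CPM in V617F, also 117-fold lower, although the WT libraries differed between themselves. The fall in CD41-positive HSC passed the test (-6.75 ± 0.99 for Hba-a1 and -6.74 ± 0.99 for Hba-a2, adjusted p = 0.00514 for each). It rests on 0, 4 and 5 reads in V617F, and the test is not independent of the choice of genes. LT-HSC held 97.5, 28.3 and 46.9 CPM in WT and 19.7, 28.4 and 14.5 CPM in V617F. The Hba-a1 groups touched there, and the -1.46 ± 0.82 difference did not pass (adjusted p = 0.522). MkP held 38.2, 66.9 and 24.8 CPM in WT and 0.816, 3.10 and 12.0 CPM in V617F, with no overlap and -3.02 ± 0.87 (adjusted p = 0.0953).

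Beta globin showed no difference past the threshold in any population. Hbb-bt, an adult beta chain whose counts the table repeats under the name Hbb-b2, held 34.9, 26.8 and 22.8 CPM in WT and 72.3, 23.0 and 37.9 CPM in V617F CD41-negative HSC, and Hbb-bs, the other adult beta chain, repeated to within 1 read as Hbb-b1, 24.5, 7.93 and 18.5 CPM in WT and 42.4, 14.7 and 23.7 CPM in V617F. Both genes overlapped between genotypes. Hbb-bt and Hbb-bs did not pass the test in CD41-negative HSC (0.66, adjusted p = 0.232, and 0.67, adjusted p = 0.327) or CD41-positive HSC (0.40, adjusted p = 0.81, and -0.40, adjusted p = 0.849), where alpha globin was near 0 in V617F. In MkP the beta chains were scarce in both genotypes, Hbb-bt at 0.0653 to 1.13 CPM in WT and 1.07 to 2.45 CPM in V617F. The embryonic chain Hba-x had no read in any library. Genes flanking the alpha globin locus did not move with it as a block. Of 6 measured in CD41-negative HSC, Il9r fell (-3.82, adjusted p = 0.0293), Polr3k and Snrnp25 rose (0.87, adjusted p = 0.0207, and 0.51, adjusted p = 0.0444), and Nprl3, whose introns hold the alpha globin enhancers, stood at -0.01 (adjusted p = 0.95). Across the table, 13.4% of genes passed the test in that comparison.

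**Figure D2:**
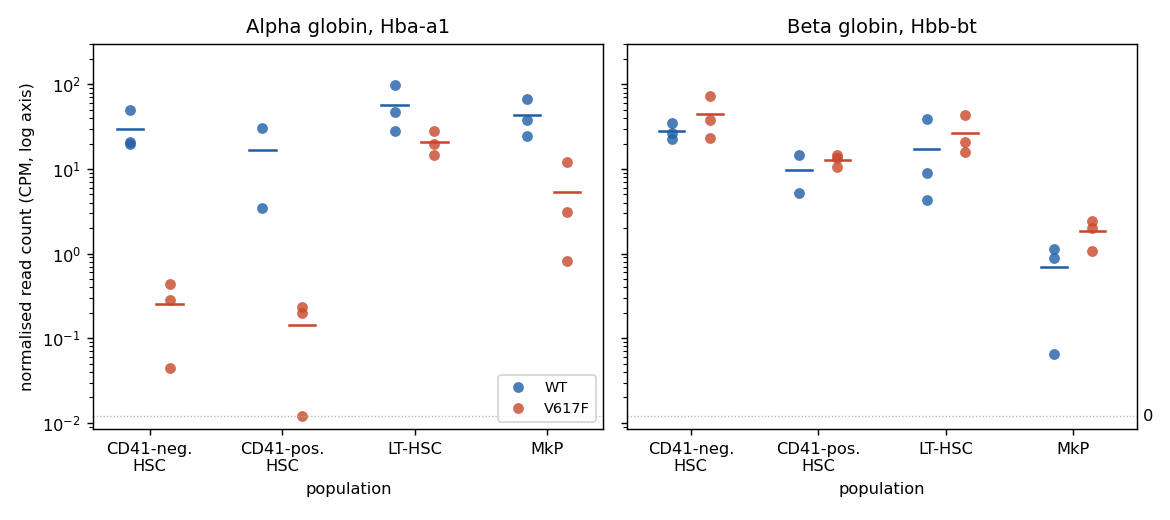
Normalised read count (CPM, log axis) of Hba-a1 (left) and Hbb-bt (right) in every library by population, blue WT and red V617F, with group means as short lines and 0 on the dotted line. Alpha globin separates by genotype in both CD41 fractions and in MkP, and beta globin does not.

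In CD41-negative HSC, 7 of the 10 genes were at least 2-fold lower in V617F, against 6.59% of the 14467 genes measured, and the WT and V617F libraries of 8 did not overlap in that direction, against 14.3%. The genes were chosen in view of this comparison, so these shares describe the choice. At least 2-fold lower were 7 of 10 in CD41-positive HSC (4.98% of genes), 6 in LT-HSC (10.8%) and 6 in MkP (9.5%). Those lower without overlap were 7 (17.8%), 5 (5.63%) and 8 (9.99%), in the same order. The LT-HSC count includes Hba-a2, apart only at 28.20 against 28.16 CPM, while Hba-a1 touched. All these counts include Car1, known to differ in every population when picked, Ermap, known to differ in MkP, and alpha globin copies counted separately. These shares therefore also describe the choice in part. In CD41-positive HSC, 4 of 9 tested members were lower in V617F by edgeR's quasi-likelihood test, namely Ermap, Rhd, Hba-a1 and Hba-a2, against 0.94% of all genes, and the alpha globin copies count as 1 measurement. The V617F libraries of both CD41 fractions deviated together by number, and the members had been chosen on the CD41-negative ones, so this count is not independent of the choice. The WT group there has 2 libraries. Without WT library 3 none of the 4 passed, and without WT library 4 or any 1 V617F library 2 did, a lone WT library being assumed to vary like the other groups. In LT-HSC 0 of 9 tested members were lower past the threshold, against 0.035% of all genes. Ermap, Rhd and Pklr, with 24, 15 and 2 reads in all in V617F LT-HSC, were lower there when the threshold was left unadjusted. So were 4.99% of genes, and DESeq2 called 3 members lower. In MkP 0 of 8 tested members passed, against 0.126% of all genes. Rhd, Pklr, Hba-a1 and Hba-a2 were lower there when the threshold was left unadjusted, as were 3.04% of genes. DESeq2 called 4 members lower in MkP, and edgeR called 1 without WT library 31. Several members passed the filter on low counts only through WT groups in which they were high. The unadjusted shares of members and of all genes are therefore no even comparison. On simulated counts with 4-fold changes, the test called 32.5% of changed genes at the spread of the LT-HSC libraries and 100% at that of CD41-negative HSC. The simulation covered only these comparisons, so it gives no call rate for CD41-positive HSC or MkP. In the LT-HSC means Ermap differed by 26.0-fold and Rhd by 151-fold. A call rate at 4-fold therefore does not say why these members did not pass.

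**Figure D3:**
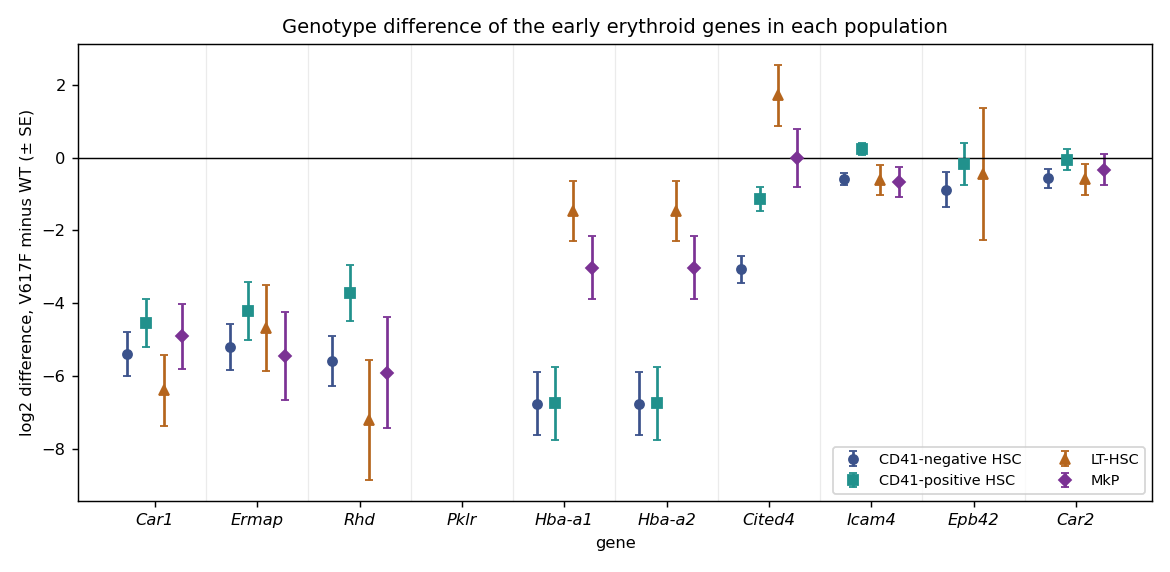
Fitted log2 difference, V617F minus WT, with SE, for each gene in CD41-negative HSC (circles), CD41-positive HSC (squares), LT-HSC (triangles) and MkP (diamonds). Pklr in all populations and Epb42 in MkP are left out because a group held 3 reads or fewer. Car1, Ermap and Rhd lie below -3 in all 4 populations, the alpha globins spread from -6.76 to -1.46, and Car2, Icam4 and Epb42 lie near 0.

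The 2 populations of each protocol ordered the genes differently. In WT, MkP exceeded LT-HSC for Cited4 (44.2 against 0.705 CPM, 5.95 ± 1.003, MkP minus LT-HSC, adjusted p = 0.00406) and Icam4 (143 against 39.1 CPM, 1.87 ± 0.42, adjusted p = 0.02). These were the 2 of 8 tested members past the threshold, against 8.9% of all genes, with the median of all genes at -0.20. The count was 1 without WT MkP library 30 or 32, 4 without WT LT-HSC library 31, and 0 when only these groups were fitted. Neither passed in V617F, where Cited4 was 43.9 against 2.33 CPM (4.23 ± 0.92, adjusted p = 0.0515) and Icam4 90.6 against 25.4 CPM (1.84 ± 0.42, adjusted p = 0.0653), and 1.09% of genes did. All V617F LT-HSC libraries were male and all V617F MkP libraries female, so population and sex cannot be told apart in V617F. With the threshold unadjusted, 4 of the 8 passed in V617F (10.4% of genes), and DESeq2 called 2. The WT and V617F differences of Cited4 between populations, the latter also between sexes, were not shown to differ (interaction adjusted p = 0.803). Epb42 went the other way in WT, with 0 reads in MkP and 3.06 CPM in LT-HSC, at least 36.9-fold lower in MkP, and did not pass (adjusted p = 0.0543). LT-HSC library 32 held 416 of the 438 reads, library 31 held 0, and without library 32 the bound was 5.40-fold. Car1 was 5.79-fold higher in WT MkP than in WT LT-HSC and 15.9-fold higher in V617F MkP than in V617F LT-HSC, given without a test. Ermap was 3.97-fold higher in WT, with no overlap, and 2.36-fold higher in V617F, with overlap. Rhd, Pklr and the alpha globins overlapped between WT populations.

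**Figure D4:**
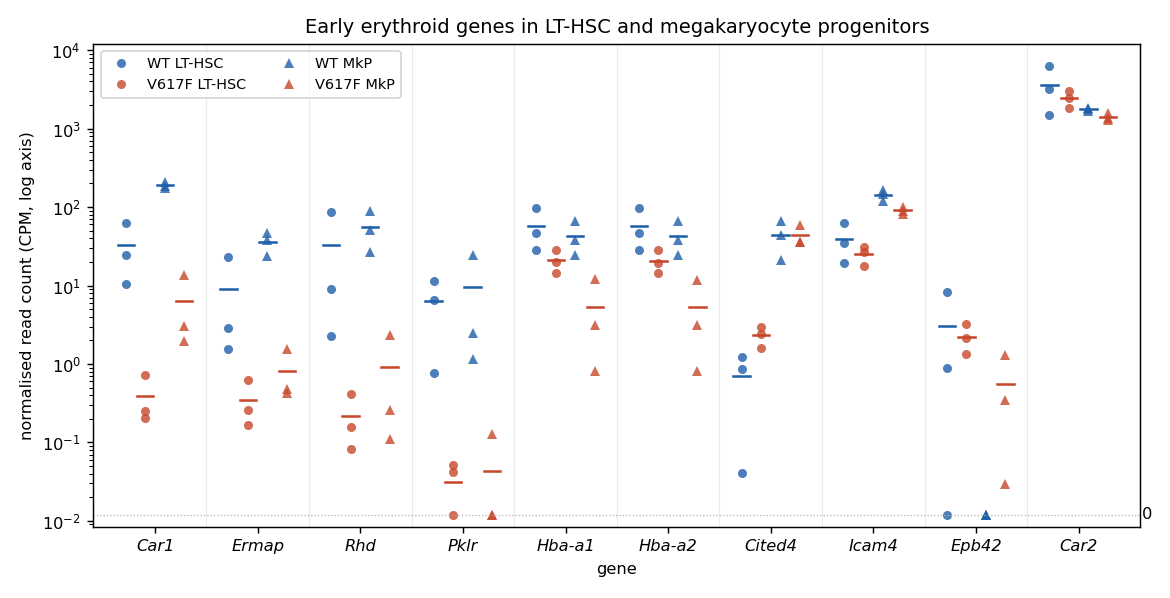
Normalised read count (CPM, log axis) of the 10 genes in each library of LT-HSC (circles) and MkP (triangles), blue WT and red V617F, with group means as short lines and 0 on the dotted line. Cited4 and Icam4 rise from LT-HSC to MkP in both colours, while Car1, Ermap, Rhd and Pklr separate by colour.

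Between the CD41 fractions, which share libraries with the comparison that chose the genes, values are given without a test. In WT 5 of the 10 were at least 2-fold lower and 2 higher in CD41-positive HSC (11% and 6% of genes), and in V617F 1 was lower and 2 higher (10% and 5.83%). In WT, Ermap, Rhd and Pklr were lower in CD41-positive than in CD41-negative HSC by 5.07-fold, 4.13-fold and 3.84-fold with no overlap. Cited4 and Icam4 were higher by 3.81-fold and 2.67-fold. In V617F the same 2 genes were higher in CD41-positive HSC by 15.3-fold and 4.72-fold, while Ermap, Rhd and Pklr overlapped. Within V617F libraries of equal number, Ermap was lower in CD41-positive HSC in all 3 pairs (0.645 and 0.0569, 0.225 and 0.199, and 0.424 and 0.234 CPM). These are 19 and 1, 5 and 4, and 12 and 5 reads. Car1 was lower in CD41-positive HSC in the pairs numbered 1 and 3 and higher in that numbered 2 (0.944 and 1.15 CPM). On the length-corrected scale (RPKM), which allows levels of different genes to be compared, Car2 was the most abundant of the 10 in every group, from 787 RPKM in V617F MkP to 2040 RPKM in WT LT-HSC. Icam4 ranked next in all 4 V617F groups (11.1 to 99.9 RPKM) and in WT MkP (158 ± 23.7, SD, n = 3), where Car1 stood close at 151 ± 12.8 RPKM. Pklr was the least abundant in every group but WT LT-HSC and WT MkP.

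Across libraries, the log2 CPM of Car1 ran close to Ermap and Rhd. Ermap gave Pearson's r of 0.942 over the 12 SMART-Seq v2 libraries and 0.984 over the 11 SMART-Seq v4 libraries. Rhd gave 0.931 and 0.988. The libraries share the genotype groups, so these values describe the pattern and carry no test. Alpha globin was less alike in the v2 libraries (0.489 against 0.918), Cited4 little alike (0.228 and 0.333) and Car2 hardly at all (0.078 and 0.18). Icam4 gave 0.683 and -0.15. Cited4 and Icam4 ran with each other at 0.720 and 0.861. Among 10510 genes with a mean of at least 5 CPM in each protocol, ranked by the smaller of the 2 correlations, the 8 genes outside the list most like Car1 were St3gal5 (0.728), Fcer1g (0.698), Plscr3 (0.639), Tpst2 (0.634), Csf2ra (0.629), Evi5l (0.619), Plpp3 (0.618) and St6galnac4 (0.615). Their genotype differences were smaller than those of Car1, between -0.20 and -1.28 on the log2 scale in CD41-negative HSC and between -0.57 and -2.74 in LT-HSC.

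Other erythroid genes were read from 10 lists written for the purpose with earlier results of these data known. Without the members they held 105 measured genes in the CD41 fractions, the repeated beta globin names counted separately. None of the beta globin names passed the test. In CD41-negative HSC 25 of the 105 were lower in V617F and 5 higher, against 7.94% and 5.48% of all genes. As the lists were written with earlier results known, these shares are not independent of those results. Genes of the red cell surface and skeleton were among them. Of 14 other genes on the surface and blood group list 8 fell and 0 rose. The 8 include Trim10, an erythroid ring-finger protein that was placed on this list. It had 0 reads in V617F and 52 in WT (at least 8.13-fold lower, adjusted p = 0.0187). Bcam and Aqp1, which carry the Lutheran and Colton blood groups, fell by 1.39 and 1.62 on the log2 scale (adjusted p = 0.0164 and 0.0205). Of 11 other skeleton genes 5 fell and 1, Tmod3, rose. Add2 (beta adducin) fell by 4.63 (adjusted p = 0.00112), Ank1 (ankyrin) by 1.61 (adjusted p = 0.0167) and Dmtn (dematin) by 1.68 (adjusted p = 0.0182), and Slc4a1 had 0 reads in V617F and 48 in WT (at least 7.42-fold, adjusted p = 0.0256). Slc4a1 is counted among the surface genes as well.

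Regulators were also among them. Of 14 other transcription factors and cofactors 5 fell in CD41-negative HSC and 0 rose, among them Zfpm1, the GATA1 partner FOG1 (-1.85, adjusted p = 0.00617), Klf1 (-2.02, adjusted p = 0.0159), Gata2 (-0.70, adjusted p = 0.0223) and Gfi1b (-0.48, adjusted p = 0.0337). Gata1 did not pass (-0.63, adjusted p = 0.139). Klf1 held 4.90, 17.9 and 22.4 CPM in WT and 3.12, 3.28 and 4.70 CPM in V617F. Epor, the erythropoietin receptor, fell from 11.7, 27.5 and 23.4 CPM to 7.84, 8.45 and 11.5 CPM (-1.17, adjusted p = 0.0226), while the STAT5 targets Socs2 and Cish rose (2.80, adjusted p = 3.21e-05, and 1.10, adjusted p = 0.0201). Among 12 other progenitor genes 6 fell and 0 rose, with Sphk1, sphingosine kinase, at -5.21 (adjusted p = 0.00144), and Klf1, Aqp1 and Epor counted here again. Metabolic lists were mostly flat. Of 15 heme synthesis genes 0 fell by the same test. Of 11 iron genes Ftl1 and Hmox1 fell (-0.95, adjusted p = 0.0268, and -2.003, adjusted p = 0.0292) and Ireb2 rose (0.56, adjusted p = 0.0146). Of 14 other glycolysis genes only Gapdh fell (-1.03, adjusted p = 0.0461).

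**Figure D5:**
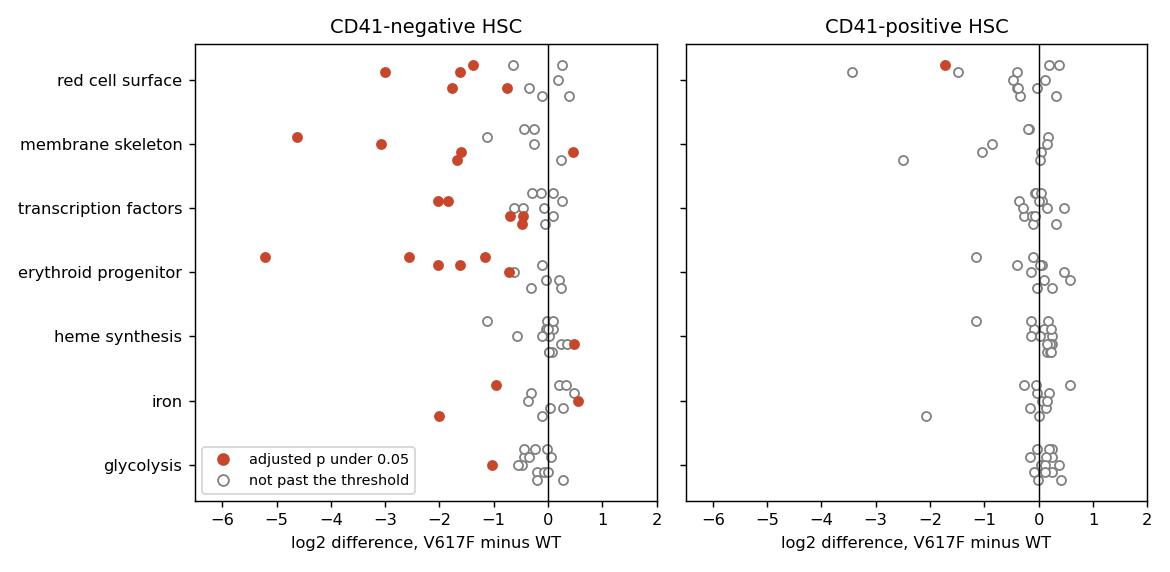
Fitted log2 difference, V617F minus WT, of the non-member genes of 7 lists in CD41-negative (left) and CD41-positive (right) HSC. Each point is a gene, filled where the adjusted p was under 0.05, and genes with 3 or fewer reads in a group are left out. The surface and skeleton genes reach far below 0 on the left, and the heme and glycolysis genes lie close to 0.

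In CD41-positive HSC only 3 of the same 105 genes were lower and 1 higher, against 0.94% and 0.221% of all genes. Bcam (-1.72, adjusted p = 0.0423) was the surface gene. Add2 had 2 reads in V617F and 35 in WT (ratio 23.6, 95% counting interval 6.07 to 203, adjusted p = 0.0449) and Sphk1 3 and 61 (ratio 27.4, 8.96 to 137, adjusted p = 0.0417), and Socs2 rose (2.06, adjusted p = 0.0015). Klf1 overlapped between genotypes here at 29.9 and 26.0 CPM in WT and 29.3, 23.2 and 34.4 CPM in V617F (0.05, adjusted p = 0.975). Gata1 was at 130 and 132 CPM in WT and at 206, 134 and 202 CPM in V617F, above WT in every library but not past the threshold (0.46, adjusted p = 0.674). Epor stood at 49.5 and 49.9 CPM in WT and 51.8, 36.8 and 49.9 CPM in V617F (-0.11, adjusted p = 0.931). In MkP 2 of 103 genes were lower, Sphk1 (18.9, 69.2 and 72.9 CPM in WT, 0.129, 0.0739 and 1.30 CPM in V617F, -6.71, adjusted p = 0.0325) and Alas1 of heme synthesis (-1.59, adjusted p = 0.0437). In LT-HSC 0 of 103 were lower by edgeR. Klf1 held 134, 60.7 and 25.9 CPM in WT and 11.6, 23.4 and 10.3 CPM in V617F LT-HSC (-2.28, adjusted p = 0.16).

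WT CD41-negative libraries 1 and 3 stood apart from library 4. Lars2 held 15742 and 16145 CPM in libraries 1 and 3 against 968 CPM in library 4, and library 1 held 75.7 CPM of Mpo against 4.16 and 3.02 CPM. Library 1 was also the lowest WT library for Car1, Ermap, Rhd and Pklr and the highest for alpha globin and Car2. With libraries 1 and 3 left out together, which leaves 1 WT library, 8 of the 10 members were at least 2-fold lower in V617F CD41-negative HSC. The count of other erythroid genes lower in that comparison was 11 without both, 22 without library 1 and 6 without library 3, and 5 to 8 when any 1 V617F library was left out. WT LT-HSC library 30 held the most Rhd, Car1, Ermap and alpha globin of its group and 8.55% of its reads in 10 genes, against 4.07% to 4.22% in the others. Without library 30 the WT LT-HSC levels of Rhd, at 2.29 and 8.91 CPM, still lay above every V617F library.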

How the data were processed

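Libraries were made with SMART-Seq v2 or v4 and Nextera XT from RNA with an integrity number above 8, per the labels' protocols. Per the submitters' processing notes, the authors used STAR 2.5.2a, the mm10 genome, R 3.4.2 and limma. How reads were assigned to genes, and with which annotation, is not given in the sources used here. Deposited values are whole-number counts per gene, not normalised.

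The protocols were fitted separately with edgeR 4.0.16 (R 4.3.3): filterByExpr, TMM scaling, 1 mean per group over all groups of the protocol, the quasi-likelihood F test, and Benjamini-Hochberg adjustment over 14281 (v2) or 14467 (v4) genes, with a threshold of 0.05. RPKM used the deposited gene lengths. Zeros were bounded at 3 counts per library, which was 0.0597 to 0.171 CPM. Log values for correlations used a prior count of 3. Nothing in the labels says that libraries of a group came from separate mice, so p-values measure the spread between these libraries, which may be technical. The fits were tested on simulated data (200 genes changed 4-fold).

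The members and lists were chosen with earlier results of these data known. Genes named are the 10 members, up to 4 genes per list with the smallest adjusted p, the 8 genes most like Car1, and Socs2, Jak2, Mpo, Ngp, Lars2, Klf1, Gata1 and Epor where a result turned on them. Some genes these rules select are not reported here. Nprl3, Tmod3, Hba-x and the beta globins were chosen after their values were seen. V617F CD41 fractions of equal number deviated together (residual r 0.292, 0.408 and 0.288), so those numbers pair the libraries, while equal-numbered WT fractions (0.0393 and 0.0252) and WT LT-HSC and MkP (-0.033, -0.0058 and 0.0228) did not. Alternatives were DESeq2 1.42.0, RLE scaling, other filters, only the groups compared, a replicate block, and libraries left out. Promoter windows are RefSeq's (GRCm38.p6). Car1 and Car2 had none in the table.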

Additional observations from a re-analysis of the deposited data

How the results depend on the processing

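Of 946 values of members under alternatives, 871 kept their direction and side of the threshold (or, untested, moved by less than the spread), 20 fell short of it, 25 newly passed it, 6 moved and 24 reversed; the cause was not tested. The count of members lower in CD41-positive HSC (4) was 6 with DESeq2 and 5 with only the groups compared. The count was 2 with a filter of 5 CPM in 3 libraries, 2 with the replicate block and 2 without the male libraries. It was also lower with any 1 library of that comparison left out. In LT-HSC (0) it was 3 with DESeq2, and in MkP (0) it was 4 with DESeq2, 1 with WT LT-HSC 30 omitted and 0 to 1 with 1 library left out. Members changed between WT MkP and LT-HSC (2) numbered 0 in a fit of only those groups and 1 to 4 with 1 library left out. Those between V617F MkP and LT-HSC (0) numbered 2 with DESeq2, 1 with RLE scaling, 1 with no filter, 1 with the stricter filter and 3 with only those groups. Members at least 2-fold lower in V617F CD41-negative HSC (7) were 4 with the stricter filter, which removes the low ones. Between CD41 fractions those lower in WT (5) were 1 and in V617F (1) were 0 with that filter. In V617F they were 0 with only the groups compared, 3 without the male libraries and 0 to 5 with 1 library left out. Other erythroid genes lower in CD41-negative HSC (25, alternatives chosen after seeing the data) were 15 with the stricter filter, 9 with only the groups compared, 6 without the male mouse, 11 without WT libraries 1 and 3, and 5 to 35 with 1 library left out. With Spearman's rho 3 of the 8 genes most like Car1 were the same, and 7 with a prior count of 1.

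Log2 differences that changed sign are given with the range over fits that leave out 1 library each. By genotype these were Car2 in LT-HSC (-0.96 to 0.061), Epb42 in LT-HSC (-1.04 to 2.18), Cited4 in MkP (-0.29 to 0.46) and Epb42 in CD41-positive HSC (-0.55 to 0.28, with 0.17 in the replicate block fit and 0.021 without the male libraries). For MkP against LT-HSC they were Hba-a1 and Hba-a2 in WT (-0.942 to 0.204 and -0.944 to 0.20), Pklr in WT (-1.81 to 1.36), and Pklr and Rhd in V617F (-3.12 to 0.96 and -0.26 to 2.96). For CD41-positive against CD41-negative HSC they were Car2 in WT (-0.35 to 0.32, with 0.33 in the replicate block fit and 0.085 without WT libraries 1 and 3), Hba-a1 and Hba-a2 in WT (-3.09 to 0.027 and -3.09 to 0.023), and Pklr and Rhd in V617F (-0.48 to 1.29 and -0.66 to 0.33). Over all genes, the number past the threshold by genotype was 1941 (145 to 6021 over the alternatives) in CD41-negative HSC, 168 (32 to 520) in CD41-positive HSC, 9 (0 to 631) in LT-HSC and 250 (46 to 1371) in MkP. By population it was 4917 (1215 to 7082) and 4960 (3333 to 6572) between CD41 fractions in WT and V617F, and 1271 (14 to 2983) and 156 (31 to 2972) between MkP and LT-HSC. The replicate block in comparisons of genotype joined libraries that share only a number, since equal numbers did not deviate together across genotypes (residual r -0.114, -0.0366 and -0.0634).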
